A study of Homo sapiens with 6 samples.

Results

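The 9 RNAs described here are long noncoding RNAs and microRNA host RNAs, chosen by gene symbol: MALAT1, NEAT1, TUG1, KCNQ1OT1, MIAT, OIP5-AS1, MEG3, MIR17HG and MIR155HG. Of these, 8 were among the 16444 genes of a table scaled to spike-in RNA, and 7 were among the 12075 genes of a table of FPKM, which counts fragments per transcript length and per library size. MIAT had a row only in the spike-in table. MEG3, an imprinted RNA with growth-restraining activity, had no row under that symbol or an older one and is not analysed here.

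Long noncoding RNAs are transcribed and processed much like messenger RNAs but act as RNA. MALAT1 and NEAT1 stay in the nucleus, in nuclear speckles and in paraspeckles, and NEAT1 is the scaffold without which paraspeckles do not form. MIR17HG and MIR155HG are precursors that are cut by Drosha and then Dicer to release the miR-17-92 cluster and miR-155, microRNAs long studied in lymphoid cancers. A microRNA is guided to its targets mainly by its seed, a short stretch near its 5′ end.

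All libraries came from KMS-27, an established human multiple myeloma line, grown with no further agent named in the labels. In siChe-1, 3 libraries, Che-1 (encoded by AATF, a protein that binds RNA polymerase II) was silenced with siRNA. In siControl, 3 libraries, the cells carried the control siRNA. Total RNA, 500 ng per library, was depleted of ribosomal RNA, made into stranded libraries and sequenced with ERCC spike-ins, synthetic RNAs added in known proportions. Separate cultures are not mentioned in the labels, so the p-values rest on a spread between libraries that may be only technical.

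Each RNA was compared on 2 scales. On the spike-in scale, reads are divided by a size factor from the spike-ins, so a difference is one per amount of spike-in. The deposited table on that scale holds siChe-1 libraries 1 and 2 and all 3 siControl libraries, with 19100793 to 20162055 recovered gene reads in siChe-1 and 19861847 to 21713775 in siControl. On the relative scale, log2(FPKM + 1) of all 6 libraries is compared after rescaling, so a difference is one relative to the other genes. Because of the added 1, low genes show less than their true fold there.

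The target was lower on both scales. AATF had 14.2, 14.2 and 16.9 FPKM in siChe-1, against 97.0, 88.8 and 119 FPKM in siControl (limma difference in log2(FPKM + 1) -2.57 ± 0.11 SE, adjusted p = 0.000117). Its log2 ratio in the authors' deposited table was -3.93 (adjusted p = 1.56e-13). All 8 plasma cell markers looked up, among them SDC1, IRF4 and PRDM1, had rows in both tables, with a summed level of 726 to 780 FPKM in siChe-1 and 774 to 885 FPKM in siControl. Of markers of other cell types, LYZ had the highest mean on the spike-in scale, 12.1 normalized reads, against at least 573 for every plasma cell marker. Spike-in reads numbered 835414, 1041244 and 379232 in siChe-1 libraries 1 to 3, against 519573, 351573 and 376170 in siControl libraries 1 to 3. Their ratio of means, 1.81, was not past an exact two-sided permutation test (p = 0.2, where the smallest possible is 0.1). siChe-1 library 3, which has as few spike-in reads as siControl libraries 2 and 3, is not in the spike-in table. For each spike-in read there were 22.9 and 19.4 gene reads in siChe-1, against 38.7, 56.5 and 57.7 in siControl, and that ratio moves with every spike-in-normalized value below. Its part in each result was not tested. On this scale fewer cells, less RNA per cell and unequal addition of spike-ins cannot be told apart. In the authors' deposited table, the median gene had a log2 ratio of -1.25, with quartiles of -1.51 and -0.97.

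The microRNAs that the 2 host RNAs give rise to are shown first. Targets listed for them below were taken as known targets, and no seed search was run on those. Mature microRNAs are from RefSeq on GRCh38.p14, written 5′ to 3′ with the seed, bases 2 to 8, in capitals. Those of MIR17HG lie on chromosome 13, plus strand, between 91350618 and 91351382.
miR-17-5p: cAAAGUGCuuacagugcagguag
miR-20a-5p: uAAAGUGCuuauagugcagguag
miR-18a-5p: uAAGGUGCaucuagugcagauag
miR-19a-3p: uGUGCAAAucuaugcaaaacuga
miR-19b-3p: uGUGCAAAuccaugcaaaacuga
miR-92a-3p: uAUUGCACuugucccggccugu
miR-155-5p: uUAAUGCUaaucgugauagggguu
Within the cluster, miR-17-5p and miR-20a-5p share a seed, miR-19a-3p and miR-19b-3p share another, and the seeds of miR-18a-5p and miR-92a-3p stand alone. The seed of miR-155-5p, encoded on chromosome 21, plus strand, at 25573983 to 25574006, matches none of them. None of the 7 hairpins (MIR17, MIR18A, MIR19A, MIR20A, MIR19B1, MIR92A1 and MIR155) had a row in either table, so all values below are of the host RNAs and not of the microRNAs.

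Relative to other genes, NEAT1, TUG1 and OIP5-AS1 rose and MIR17HG fell. MIR17HG also had the lowest log2 ratio of the 8 RNAs against the spike-ins. edgeR's quasi-likelihood test on the spike-in scale called 3 of the 7 members tested, MIR17HG, MIAT and OIP5-AS1, all lower in siChe-1. The same test called 84.3% of all genes lower. On the relative scale limma called 4 of the 5 members tested, 3 higher and 1 lower, where it called 15.1% of all genes higher and 15.1% lower.

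NEAT1 rose relative to other genes and was not called against the spike-ins. Its listed transcript, NR_028272 (hg19 chr11:65190269-65194003, plus strand), spans the short isoform. Reads of the long isoform over that stretch cannot be told apart from it. NEAT1 had 124, 141 and 129 FPKM in siChe-1, against 84.7, 82.0 and 67.5 FPKM in siControl. All siChe-1 libraries lay above all siControl libraries, as in 14.9% of tested genes. The means were 132 ± 8.52 FPKM in siChe-1 and 78.1 ± 9.26 FPKM in siControl (SD, n = 3 each). The difference in log2(FPKM + 1) was 0.84 ± 0.12 (SE, limma adjusted p = 0.00314), and 98.8% of tested genes had a lower one. Against the spike-ins, NEAT1 had 6541 and 5718 normalized reads in siChe-1, against 7410, 10278 and 8156 in siControl. Both siChe-1 libraries lay below all siControl libraries, as 89.5% of genes did. The log2 ratio of -0.49 ± 0.32 (SE) did not pass edgeR's quasi-likelihood test (adjusted p = 0.132). The authors' deposited table gives NEAT1 -0.49 with an adjusted p of 0.320, and 93.9% of its genes had a lower value.

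MALAT1 was the most abundant of the 7 RNAs with FPKM, ranking 37 of 12075 genes by mean FPKM. Its transcript NR_002819 lies at hg19 chr11:65265233-65273939 on the plus strand. It had 1711, 2004 and 1329 FPKM in siChe-1, against 1402, 1548 and 1024 FPKM in siControl, and the groups overlapped. The difference in log2(FPKM + 1) of 0.44 ± 0.22 (SE) did not pass (limma adjusted p = 0.170). On the spike-in scale MALAT1 had 171038 and 199168 normalized reads in siChe-1, while for siControl the authors' deposited table gives a mean of 319759. Reads of each siControl library could not be recovered for so abundant a gene, and no test on them was run. In the authors' deposited table its log2 ratio was -0.79 (adjusted p = 0.174). MALAT1 took 1.28% of normalized reads in siChe-1 and 0.881% in siControl.

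**Figure D1:**
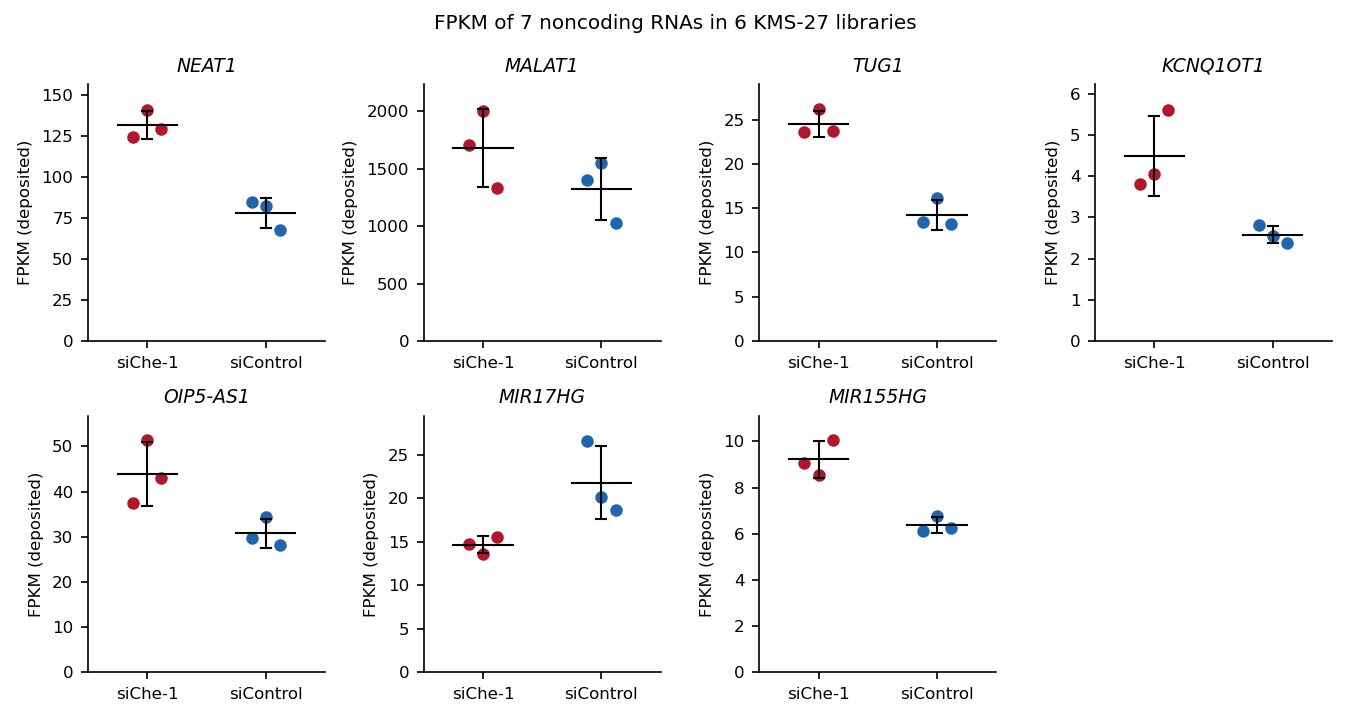
FPKM (y axes, linear, from 0) of 7 RNAs in the 3 siChe-1 libraries (red, left) and the 3 siControl libraries (blue, right); lines are means and bars SD. All siChe-1 libraries lie above all siControl libraries for NEAT1, TUG1, KCNQ1OT1, OIP5-AS1 and MIR155HG, all lie below for MIR17HG, and the groups overlap for MALAT1.

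TUG1, a conserved RNA reported to bind the PRC2 repressor complex, moved much like NEAT1. NR_002323, its listed transcript, lies at hg19 chr22:31365634-31375380 on the plus strand. It had 23.6, 26.2 and 23.7 FPKM in siChe-1, against 13.4, 16.2 and 13.2 FPKM in siControl. All siChe-1 libraries lay above all siControl libraries, as in 14.9% of tested genes. The difference in log2(FPKM + 1) was 0.83 ± 0.11 (SE, limma adjusted p = 0.00222). Against the spike-ins TUG1 had 2213 and 2338 normalized reads in siChe-1, against 2135, 4072 and 3279 in siControl. siControl library 1 lay below both siChe-1 libraries, so the groups overlapped there. With a log2 ratio of -0.47 ± 0.33 (SE), TUG1 was not called by edgeR's quasi-likelihood test (adjusted p = 0.160).

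OIP5-AS1, known as Cyrano in fish and mouse, carries a long and highly conserved site for miR-7 and in mouse drives that microRNA's decay. The site is shown because its pairing runs far beyond a seed. In a GENCODE v29 transcript (ENST00000500949.6, chromosome 15, bases 2870 to 2894 of 8829) it reads as follows, with capitals for the match to the seed and for the longest complementary run beyond it, and below it stands miR-7-5p from RefSeq with its seed in capitals:
OIP5-AS1 site: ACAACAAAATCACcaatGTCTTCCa
miR-7-5p: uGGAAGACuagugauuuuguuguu
Beyond the seed match, the site holds a run of 13 further complementary bases, while the 2 other seed matches of that transcript hold runs of 5 and 3. OIP5-AS1 itself (NR_026757, hg19 chr15:41576201-41591795, plus strand) had 37.4, 51.4 and 43.0 FPKM in siChe-1, against 29.7, 34.3 and 28.3 FPKM in siControl. All siChe-1 libraries lay above all siControl libraries, as in 14.9% of tested genes. OIP5-AS1 rose by 0.58 ± 0.14 in log2(FPKM + 1) (SE, limma adjusted p = 0.0173). Without siChe-1 list position 3, or without siControl list position 3, that call was lost (limma adjusted p = 0.0516 and 0.0700). Against the spike-ins it had 886 and 1086 normalized reads in siChe-1, against 1159, 2135 and 1749 in siControl. That fall, a log2 ratio of -0.77 ± 0.34 (SE), passed edgeR's quasi-likelihood test (adjusted p = 0.0308), which called 84.3% of all genes lower. The call was lost when siControl library 2 or siControl library 3 was left out (edgeR adjusted p = 0.224 and 0.113). Those fits called 67.2% and 65.6% of all genes lower. Without siChe-1 library 1 or 2, which leaves no replicate in that group, the log2 ratio was -0.63 and -0.92.

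KCNQ1OT1 is the antisense RNA of the imprinted KCNQ1 domain, where it silences neighbours such as CDKN1C in cis. The deposited FPKM table lists it (NR_002728) on the minus strand of hg19 chromosome 11 under the same range as KCNQ1, 2466221 to 2870340, which are not its own ends. The sources used here do not say whether reads were counted by strand, so reads of KCNQ1OT1 and of KCNQ1 introns cannot be told apart. It had 3.81, 4.06 and 5.61 FPKM in siChe-1, against 2.81, 2.55 and 2.39 FPKM in siControl. The groups did not overlap, but at these levels the gene missed the FPKM minimum of 10. With a minimum of 1 it was called (0.63 ± 0.13 SE, limma adjusted p = 0.0122), where 13.4% of all genes were called higher. In the fit per transcript, which starts at an FPKM of 1, the difference in log2(FPKM + 1) was 0.68 ± 0.16 (SE, limma adjusted p = 0.0467). There 5.69% of all transcripts were called higher. KCNQ1OT1 lost that call with FPKM as deposited (limma adjusted p = 0.0680) and with any library left out (0.0885 to 0.143). Such fits called 0.359% to 4.37% of all transcripts in either direction, against 10.3% with all libraries. KCNQ1 itself, a potassium channel gene, had 7.53 ± 1.49 FPKM in siChe-1 and 7.51 ± 0.63 FPKM in siControl (SD, n = 3 each). CDKN1C, a cell cycle inhibitor, had 1.60 ± 0.21 FPKM in siChe-1 and 1.15 ± 0.68 FPKM in siControl, too low to be tested at the minimum of 10. Against the spike-ins KCNQ1OT1 had 4262 and 3423 normalized reads in siChe-1, against 5008, 6072 and 5690 in siControl (log2 ratio -0.54 ± 0.32 SE, edgeR's quasi-likelihood adjusted p = 0.101).

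MIAT, a nuclear RNA best known from neurons and from a heart attack susceptibility locus, had the fewest reads of the 8. It had 27.4 and 28.3 normalized reads in siChe-1, against 43.4, 58.2 and 81.4 in siControl, from only 36 to 54 reads per library. Both siChe-1 libraries lay below all siControl libraries, as 89.5% of genes did. The log2 ratio of -1.12 ± 0.45 (SE) passed edgeR's quasi-likelihood test (adjusted p = 0.0181), which called 84.3% of all genes lower. It was close to the median of all genes, and 61.6% of genes had a lower value in the authors' deposited table. There its adjusted p was 0.104. With TMM, a scaling to the other genes of these 5 libraries, its log2 ratio was 0.13 (edgeR adjusted p = 0.751). Its call against the spike-ins was lost without siControl library 3 (edgeR adjusted p = 0.149), where 65.6% of all genes were called lower. Without siChe-1 library 1 or 2, which leaves no replicate in that group, the log2 ratio was -1.10 and -1.14.

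MIR17HG was the only one of the 7 RNAs present on both scales to be called lower on both. NR_027350, its listed transcript, lies at hg19 chr13:92000074-92006829 on the plus strand. Against the spike-ins it had 553 and 562 normalized reads in siChe-1, against 1783, 2285 and 2074 in siControl. Both siChe-1 libraries lay below every siControl library, as in 89.5% of genes. The log2 ratio was -1.88 ± 0.36 (SE, edgeR's quasi-likelihood adjusted p = 3.33e-06), where 84.3% of all genes were called lower. In the authors' deposited table only 7.24% of genes fell more, and MIR17HG was the only one of the 8 members called there (log2 ratio -1.88, adjusted p = 0.000225), where 63.5% of all genes were called lower. It was called in every fit that left out a siControl library. Without siChe-1 library 1 or 2 the log2 ratio was -1.86 and -1.89. With a term for replicate number, where only 0.473% of all genes were called, MIR17HG was not (-1.86, edgeR adjusted p = 0.265). On the relative scale it had 14.7, 13.6 and 15.6 FPKM in siChe-1, against 26.6, 20.1 and 18.7 FPKM in siControl. All siChe-1 libraries lay below all siControl libraries, as in 30.3% of tested genes. The difference in log2(FPKM + 1) was -0.44 ± 0.13 (SE, limma adjusted p = 0.0411). This call sat near the threshold: without the highest siControl value the difference was -0.30 (limma adjusted p = 0.0703), and it was lost in 6 of 15 settings in all, each with the same sign. With TMM on the recovered reads it was -0.64 (edgeR adjusted p = 0.00316), where 14.8% of all genes were called lower.

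MIR155HG, also known as BIC, had a difference of the opposite sign relative to other genes. It is listed as NR_001458 at hg19 chr21:26934457-26947480, plus strand. It had 9.04, 8.53 and 10.1 FPKM in siChe-1, against 6.11, 6.76 and 6.25 FPKM in siControl. The groups did not overlap, but its mean FPKM of 7.79 missed the minimum of 10. With a minimum of 1 it was called higher (0.50 ± 0.09 SE, limma adjusted p = 0.00771), where 13.4% of all genes were called higher. Per transcript the difference in log2(FPKM + 1) was 0.55 ± 0.10 (SE, limma adjusted p = 0.0282), where 5.69% of all transcripts were called higher. This call was lost with any library left out (limma adjusted p = 0.0518 to 0.106). Such fits called 0.359% to 4.37% of all transcripts in either direction, against 10.3% with all libraries. Against the spike-ins MIR155HG had 114 and 123 normalized reads in siChe-1, against 131, 250 and 234 in siControl. The log2 ratio of -0.78 ± 0.39 (SE) missed the threshold (edgeR's quasi-likelihood adjusted p = 0.0547).

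**Figure D2:**
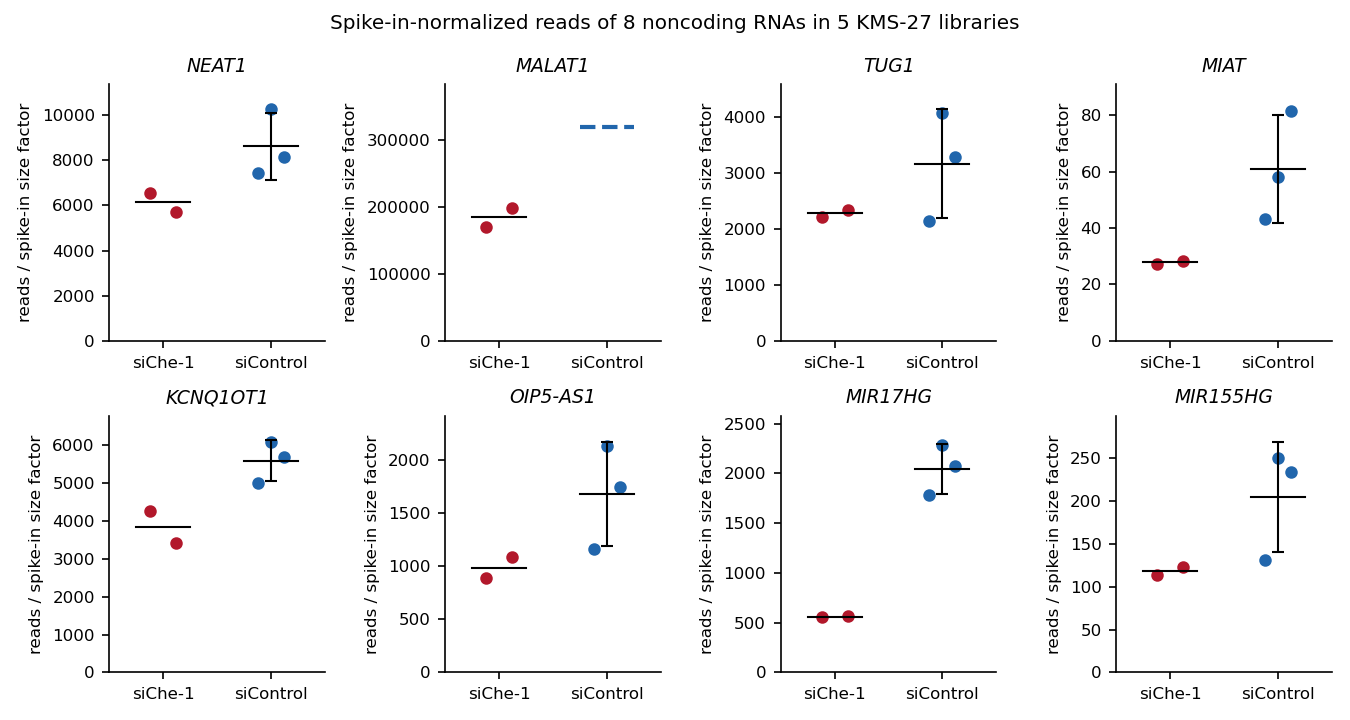
Reads divided by the spike-in size factor (y axes, linear, from 0) of 8 RNAs in siChe-1 libraries 1 and 2 (red, left) and siControl libraries 1 to 3 (blue, right); black lines are means, bars SD over the 3 siControl libraries, and the dashed line for MALAT1 is the authors' siControl mean. MIR17HG shows a wide gap, 553 and 562 in siChe-1 against 1783 to 2285 in siControl, and siControl library 1 comes close to or below siChe-1 for TUG1, OIP5-AS1 and MIR155HG.

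Across the members, all 8 log2 ratios in the authors' deposited table were negative, with a median of -0.78 beside -1.25 for all genes. On the relative scale 6 of the 7 members fitted per transcript had a positive difference, with a median of 0.58. Per transcript limma called 4 of these 7 (NEAT1, TUG1, KCNQ1OT1 and MIR155HG, all higher), where it called 5.69% of all transcripts higher. With a library left out, 0 to 2 of the 7 were called, beside 0.359% to 4.37% of all transcripts in either direction (10.3% with all libraries). OIP5-AS1 and MIR17HG, called when genes were tested, missed it there (limma adjusted p = 0.0592 and 0.112). Spike-in size factors and TMM on the same reads differed by 1.24 in the median log2 ratio of all genes, and with TMM the signs of NEAT1, TUG1, KCNQ1OT1, OIP5-AS1, MIAT and MIR155HG turned positive. Under TMM edgeR called 14.0% of all genes higher, among them NEAT1, TUG1, KCNQ1OT1 and OIP5-AS1 (adjusted p = 0.000845, 0.000644, 0.00140 and 0.0206). The spike-in count moved with the libraries used, as did that of all genes. Without siControl library 1, which has the fewest gene reads per spike-in read of its group, edgeR called all 7 members tested and 93.1% of all genes lower. Without siChe-1 library 1, siChe-1 library 2 or siControl library 3 it called only MIR17HG of the 7, and 61.6%, 22.4% and 65.6% of all genes lower.

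**Figure D3:**
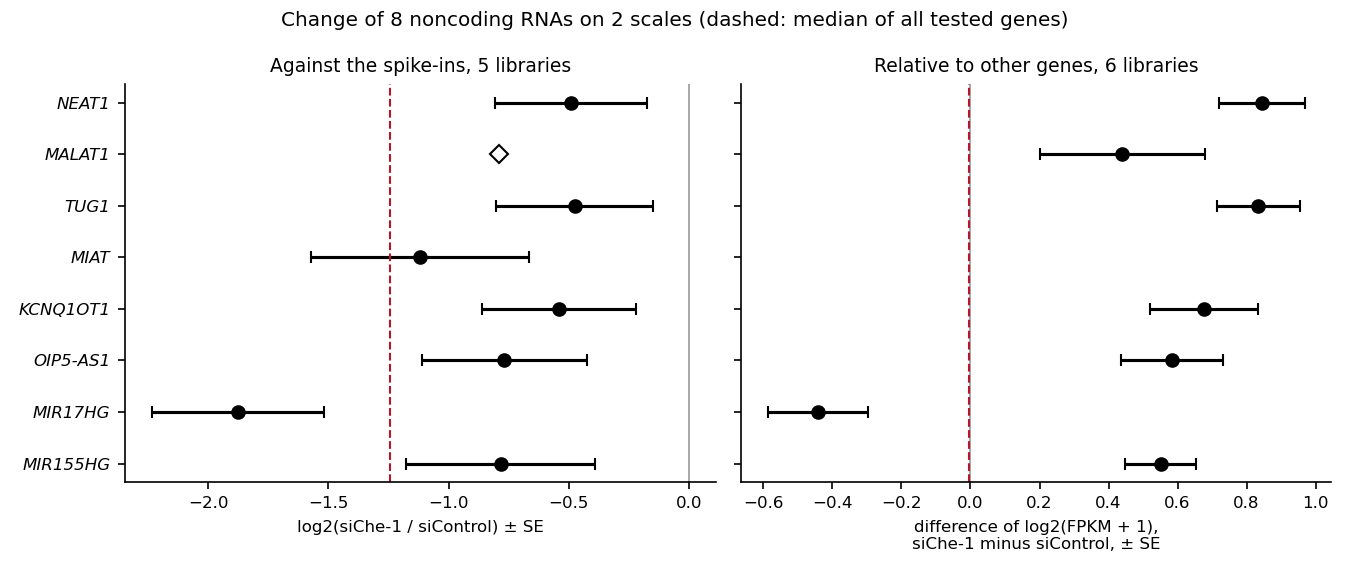
Differences between siChe-1 and siControl with their SE (x axes, log2) for 8 RNAs, against the spike-ins by edgeR (left; the open diamond for MALAT1 is the authors' log2 ratio, without SE) and relative to other genes by limma per transcript (right, MIAT not in that table); dashed lines are medians of all tested genes. MIR17HG lies left of the dashed line in both panels, and 6 other RNAs lie right of it in both.

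The promoters of the 2 host RNAs, whose relative differences had opposite signs, are shown for comparison, 250 bases before the annotated start to 50 after, from RefSeq on GRCh38.p14. Capitals mark matches to 4 motifs on either strand. The E-box, which MYC binds, was searched as CACGTG, and the AP-1 site, bound by dimers of JUN and FOS proteins, as TGANTCA. The TATA box near many start sites was taken as the word TATAAA, and the CCAAT box, bound by NF-Y, by the letters of its name. No match in these windows overlapped another. MIR17HG is at chr13:91347437-91347736 and MIR155HG at chr21:25561895-25562194, both on the plus strand.
MIR17HG promoter: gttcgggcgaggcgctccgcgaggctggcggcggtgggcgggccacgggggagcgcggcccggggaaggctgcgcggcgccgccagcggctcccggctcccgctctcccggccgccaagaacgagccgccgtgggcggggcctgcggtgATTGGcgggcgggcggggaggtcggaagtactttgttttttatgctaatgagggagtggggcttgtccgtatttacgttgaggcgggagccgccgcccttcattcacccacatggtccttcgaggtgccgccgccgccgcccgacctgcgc
MIR155HG promoter: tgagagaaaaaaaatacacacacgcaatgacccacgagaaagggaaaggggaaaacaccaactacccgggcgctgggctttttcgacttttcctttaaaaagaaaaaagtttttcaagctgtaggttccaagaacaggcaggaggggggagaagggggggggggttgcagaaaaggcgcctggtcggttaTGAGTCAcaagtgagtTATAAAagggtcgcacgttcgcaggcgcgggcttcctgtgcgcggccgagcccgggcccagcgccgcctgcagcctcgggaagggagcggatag
The MIR17HG window, 73.0% G and C, held 1 CCAAT box and none of the other motifs. The MIR155HG window, 56.0% G and C, held an AP-1 site 60 bases and a TATA box 44 bases before the start. Of 35116 RefSeq promoter windows of that length, 34.6% held a CCAAT box, 7.71% an AP-1 site, 11.5% a TATA box and 7.26% an E-box. TUG1 and OIP5-AS1 each held 1 E-box and 2 CCAAT boxes in their windows. Promoters of 7 of the 9 members were in the RefSeq table. A match is a run of letters, not evidence of a bound factor.

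Genes that encode factors known to act at the MIR17HG or MIR155HG promoter changed in both directions relative to other genes. Of 9 tested, 4 fell and 2 rose, where limma called 15.1% of all genes lower and 15.1% higher. The median difference was -0.24 in log2(FPKM + 1) beside -0.0040 for all genes. MYC, an activator of the miR-17-92 cluster, had 145 ± 7.35 FPKM in siChe-1 and 293 ± 14.7 FPKM in siControl (SD, n = 3 each; limma difference -0.92, adjusted p = 0.00109). E2F3, another activator of MIR17HG, also fell (-0.55, limma adjusted p = 0.00226). E2F1, on the same list, had a difference of the opposite sign and was not called (0.56, limma adjusted p = 0.0535). Of the rest, named after their values were seen, the blood progenitor factor MYB and the NF-κB subunit NFKB1 fell (-0.54 and -0.46, limma adjusted p = 0.00927 and 0.00600). JUNB, an AP-1 subunit, and STAT3 rose (0.44 and 0.29, limma adjusted p = 0.0171 and 0.0204), with the JUNB call lost in 2 and the STAT3 call in 9 of 15 settings. Of 10 listed factors with a mean of at least 10, the authors' deposited table has 7 called lower and none higher, with a median log2 ratio of -1.40, where 63.5% of all genes were called lower.

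In each list of microRNA targets 1 gene was called relative to other genes, where limma called 15.1% of all genes higher and 15.1% lower. Of 5 tested targets of the miR-17-92 cluster, RBL2, a pocket protein that restrains the cell cycle, rose by 0.46 in log2(FPKM + 1) (limma adjusted p = 0.00691) and none fell. E2F1, a cell cycle transcription factor, had a difference of 0.56 (limma adjusted p = 0.0535). Of 5 tested targets of miR-155, the p53-induced gene TP53INP1 rose, with 63.0 ± 8.41 FPKM in siChe-1 and 32.0 ± 2.27 FPKM in siControl (SD, n = 3 each; limma difference 1.04, adjusted p = 0.00112). BACH1, another target of miR-155, had a difference of 0.17 (limma adjusted p = 0.181). The list medians were 0.23 for targets of the cluster and 0.04 for those of miR-155. Against the spike-ins, 4 of 9 and 6 of 9 of these targets were called lower in the authors' deposited table, with median log2 ratios of -1.04 and -1.32, where 63.5% of all genes were called lower. With a minimum FPKM of 1, CDKN1A of the cluster's list and INPP5D of the miR-155 list were also called higher. Their differences were 1.60 and 0.30 (limma adjusted p = 0.0206 and 0.0410), where 13.4% of all genes were called higher. CDKN1A had 5.08 ± 0.49 FPKM in siChe-1 and 1.26 ± 1.12 FPKM in siControl. In the authors' deposited table its log2 ratio was 0.50 (adjusted p = 0.298). Both were named after their values were seen.

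Of 11 tested genes of microRNA processing and silencing, 3 rose and 2 fell relative to other genes, with a median of 0.19. Among all genes limma called 15.1% higher and 15.1% lower. EIF2C2, the older symbol of AGO2, the Argonaute that cleaves targets, had 46.6 ± 4.62 FPKM in siChe-1 and 24.8 ± 1.67 FPKM in siControl (SD, n = 3 each; limma difference 0.97, adjusted p = 0.00109). DICER1, which cuts the precursor hairpins, rose by 0.67 (limma adjusted p = 0.00387). The Argonaute gene EIF2C4 rose by 0.35, while TNRC6A, a partner of Argonaute, fell by 0.44 and the exporter XPO5 fell by 0.20 (limma adjusted p = 0.0108, 0.00887 and 0.0463). These 3 were named after their values were seen. The XPO5 call was lost in 10 of 15 settings, and those of DICER1 and EIF2C4 in 1 each. DDX5, the most abundant and a helicase of the Drosha complex, had a difference of 0.23 (limma adjusted p = 0.103). Against the spike-ins 13 of 17 were called lower in the authors' deposited table, with a median of -1.14, beside 63.5% and -1.25 for all genes.

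Genes of paraspeckle proteins, the partners of NEAT1, mostly missed the threshold. Of 18 tested, 2 rose and none fell, with a median of -0.013, where 15.1% of all genes were called higher and 15.1% lower. TAF15, an RNA-binding protein, rose by 0.45 (limma adjusted p = 0.0187), a call that 2 of 15 settings lost. HNRNPA1, the most abundant, had 724 ± 92.6 FPKM in siChe-1 and 763 ± 34.7 FPKM in siControl (SD, n = 3 each; limma adjusted p = 0.959), and its sign turned in 8 of 15 settings. Against the spike-ins, 15 of 18 were called lower and none higher in the authors' deposited table, with a median log2 ratio of -1.30, beside 63.5% called lower and a median of -1.25 for all genes.

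Other RNAs of the same kinds did not share one direction. Of 10 other long noncoding RNAs tested, 1 rose and 3 fell relative to other genes, with a median of -0.27. Among all genes limma called 15.1% higher and 15.1% lower. DANCR, a snoRNA host, had 75.05 ± 2.58 FPKM in siChe-1 and 151 ± 19.5 FPKM in siControl (SD, n = 3 each; limma difference -0.90, adjusted p = 0.00166), while FGD5-AS1 rose by 0.34 (limma adjusted p = 0.0102, call lost in 2 of 15 settings). RMRP, the RNA of the RNase MRP enzyme and the most abundant, fell by 0.41 (limma adjusted p = 0.0305) but lost its call in 8 of 15 settings. EPB41L4A-AS1, named after its value was seen, fell by 0.49 (limma adjusted p = 0.0129). Of 8 other microRNA host genes tested, PANK3, host of a miR-103 copy, rose by 0.40 and SREBF1, host of miR-33b, fell by 0.54 (limma adjusted p = 0.00984 and 0.0373), with the SREBF1 call lost in 6 of 14 settings. SMC4, the host of miR-15b and miR-16-2 and the most abundant, had a difference of 0.29 (limma adjusted p = 0.0758). With a minimum FPKM of 1, the long noncoding RNAs HCG11, LINC00094, TP53TG1 and FTX were also called higher, by 0.67, 0.65, 0.46 and 0.32. Their limma adjusted p-values were 0.00315, 0.00315, 0.0347 and 0.0392. DLEU1 was called lower there (-0.73, limma adjusted p = 0.0243), and RMRP was not called (limma adjusted p = 0.117). Of the hosts, MIR600HG and LINC00478 were called higher in that fit (0.42 and 0.51, limma adjusted p = 0.0400 and 0.0218). It called 13.4% of all genes higher and 13.8% lower. Apart from RMRP, the genes named from it were chosen after their values were seen. Against the spike-ins, 11 of 23 other long noncoding RNAs and 8 of 17 other hosts were called lower in the authors' deposited table, with median log2 ratios of -1.37 and -1.01, again beside 63.5% of all genes.

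**Figure D4:**
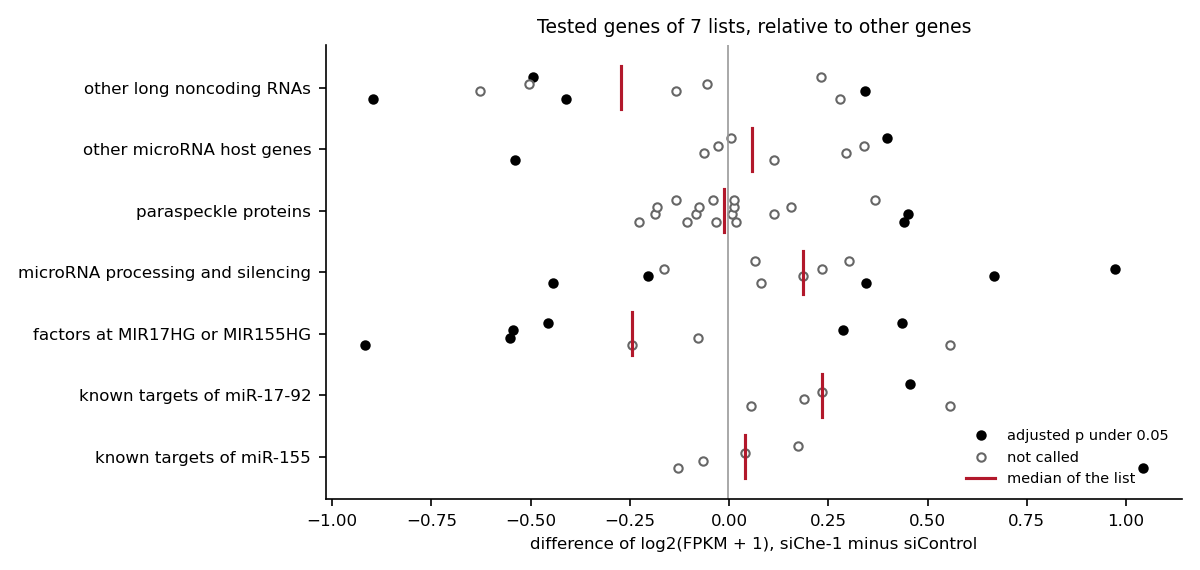
Difference in log2(FPKM + 1), siChe-1 minus siControl (x axis), of the tested genes of 7 lists (rows); filled points have an adjusted p under 0.05 by limma, open points do not, red bars are list medians and the grey line is the median of all genes. EIF2C2 at 0.97 and TP53INP1 at 1.04 lie farthest right, and MYC at -0.92 and DANCR at -0.90 farthest left.

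None of the nearest listed neighbours tested was called relative to other genes. Beside NEAT1, FRMD8, 9273 bases away, had a difference in log2(FPKM + 1) of 0.18 (limma adjusted p = 0.207). MORC2, 1446 bases from TUG1 on the opposite strand, had 10.8 ± 0.24 FPKM in siChe-1 and 11.7 ± 0.42 FPKM in siControl (SD, n = 3 each; limma adjusted p = 0.908). On either side of OIP5-AS1, CHP and OIP5 had differences of 0.10 and -0.06 (limma adjusted p = 0.381 and 0.818). Beyond MIR17HG the nearest tested gene, TGDS, lay 3219478 bases away and had a difference of -0.10 (limma adjusted p = 0.347).

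Among the members, log2(FPKM + 1) of NEAT1 and TUG1 varied most alike over the 6 libraries (Pearson r = 0.973), and TUG1 and MIR155HG followed with 0.953. MIR17HG had negative correlations with all 6 others, between -0.39 and -0.80. These are descriptions over libraries that share the same 2 groups. An r over 0.95 was reached by 254 tested genes with NEAT1, 280 with TUG1 and 162 with OIP5-AS1. With MALAT1 and MIR17HG it was reached by 30 and 24. Of all tested genes, ESYT2 was the most like NEAT1, with r = 0.999, followed by EHBP1 and MYO6. DCAF7, MAP1B and CREB3L2 were nearest to TUG1 (each r = 0.997), and LMTK2, OGDH and SNX11 to OIP5-AS1 (0.999, 0.995 and 0.993). For MALAT1 they were RFFL, ARL1 and ESRP1 (0.995, 0.992 and 0.988), and for MIR17HG they were RSBN1L, TMEM192 and UBE2W (0.995, 0.991 and 0.989). None of the 3 genes nearest to MALAT1 or of the 3 nearest to MIR17HG was called by limma.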

How the data were processed

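Per the file headers, the authors deposited raw counts of 92 spike-ins in 6 libraries, a table of their comparison and a table of transcripts. The comparison table gives the authors' signal (group means of reads over spike-in size factors), with the deposited ratio (fold), its log2 and p-values. The deposited transcript table gives FPKM per library without replicate numbers ("list positions" here), a log2 ratio and q-values. DESeq2, HTSeq, TopHat, Cufflinks and Cuffdiff were run against hg19, per the submitters' processing notes, with roles and versions not given.

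Low group means are whole reads over size factors for siChe-1 libraries 1 and 2 and siControl 1 to 3 (100% of 1327 siControl and 2139 siChe-1 means, relative tolerance 8e-15; 0% with any other siChe-1 set). Whole reads were recovered for 16318 of 16444 genes, and the design's test on 6 libraries was run on these 5. edgeR 4.0.16 (quasi-likelihood, spike-in factors, mean at least 10) tested 12465 genes; limma 3.58.1 (trend, log2(FPKM + 1), rescaled by the median of ratios, mean FPKM at least 10) tested 6285 genes, and 15089 transcripts at a minimum of 1. DESeq2 1.42.0 was an alternative. p-values were two-sided and Benjamini-Hochberg adjusted over all features, threshold 0.05. Starts in the transcript table count from 0 and are printed plus 1. Read recovery, edgeR and limma were tested on simulated data.

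Members and gene lists were chosen with earlier results of these data known. Named genes are the members, AATF, the 2 smallest limma p-values and the most abundant gene of each list, nearest neighbours and the 3 most similar genes; genes named otherwise are said to be. Some genes that this rule takes are not reported here. Sequences were read from RefSeq (GRCh38.p14) and GENCODE v29.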

Additional observations from a re-analysis of the deposited data

How the results depend on the processing

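The count of members called lower against the spike-ins, 3 of 7, became 5 with DESeq2 (85.1% of all genes lower) and 1 of 8 with the authors' deposited adjusted p. It ranged from 1 to 7 when a library was left out. With TMM or the median of ratios, which scale to the other genes, 5 were called (4 higher and MIR17HG lower, beside 28.8% and 28.9% of all genes in either direction), and 6 log2 ratios turned positive under both: NEAT1 (0.74 with TMM and 0.73 with the median of ratios), TUG1 (0.80 and 0.80), KCNQ1OT1 (0.67 and 0.67), MIAT (0.13 and 0.13), OIP5-AS1 (0.51 and 0.51) and MIR155HG (0.50 and 0.49). This change of scale moves all genes by 1.24. With a replicate block 0 were called (0.473% of all genes), and MIR17HG had -1.86 with an edgeR adjusted p of 0.265. The deviations of same-numbered libraries correlated by 0.199 and 0.217. Crossed ones had -0.199 and -0.217, which adds nothing, since 2 siChe-1 libraries deviate from their mean in mirror image. With 2 shared numbers, and no label that ties them to a batch or culture, whether they pair the samples was not settled. The relative count of 4 of 5 was 6 of 7 with a minimum FPKM of 1 or no filter. It ranged from 2 to 4 when a library was left out, beside 15.7% to 27.9% of all genes in either direction (30.2% with all 6 libraries). The count per transcript of 4 then ranged from 0 to 2, beside 0.359% to 4.37% of all transcripts (10.3% with all 6). NEAT1 and TUG1 kept their relative gene-level call in all 15 settings. MIR17HG lost it with the upper quartile and the most abundant transcript (limma adjusted p = 0.0654 and 0.0615) and in 4 fits without a library. Depth limits MIAT, with 36 to 54 reads per library. The spike-in read ratio ranged from 1.46 to 2.26 when a library was left out, where 0.2 is the smallest p possible.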

Other observations

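A ratio of a pair of RNAs within a library does not depend on the scaling. MIR17HG over MIR155HG, in FPKM, was 1.63, 1.60 and 1.55 in siChe-1, against 4.36, 2.98 and 2.99 in siControl. The same ratio in recovered reads was 4.84 and 4.56 in siChe-1, against 13.6, 9.12 and 8.87 in siControl, and the groups overlapped in neither. MIR17HG over TUG1, in FPKM, averaged 0.60 ± 0.07 in siChe-1 and 1.55 ± 0.39 in siControl (SD, n = 3 each). MIR17HG over MIR155HG was thus lower in every siChe-1 library compared than in every siControl library. That says nothing of which of the 2 host RNAs differed, and how many other gene pairs part the groups was not counted. NEAT1 over MALAT1, in FPKM, was 0.0727, 0.0704 and 0.0974 in siChe-1, against 0.0604, 0.0530 and 0.0659 in siControl, again without overlap. These pairs were chosen after their values were seen, and no test was run on them.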
